A study of Mus musculus with 12 samples.

Results

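Sorted liver ILC1 carried far more RNA than NK cells for 7 genes that have been little studied in innate lymphocytes: Asphd2, Ccdc136, Aim1l, Aqp9, 1810011H11Rik, 2900026A02Rik and A430088P11Rik. They are 7 of the 5545 genes with complete rows in the analysed table, and they were selected on their measured levels, because they stood far above the NK cell libraries in ILC1 or rose in NK cells of obese mice. The contrasts of ILC1 with NK cells and of obese with lean NK cells therefore chose them and are described here without a test. The contrast of obese with lean ILC1 was not itself a reason for the choice and was tested. The choice did use the levels of the same ILC1 libraries, so this contrast is not independent of it. All 7 passed the filter on low counts that 2606 genes passed. That filter was applied over all 12 libraries, and on the NK libraries alone Asphd2, Ccdc136 and 1810011H11Rik did not pass it.

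The libraries came from C57BL/6 mice, 3 lean and 3 obese, and each mouse gave a library of NK cells and a library of ILC1, so that 12 libraries fell into 4 groups of 3. Lean mice were weaned onto the standard RM1 diet and obese mice onto the obesogenic diet 824018 (45% AFE fat) with condensed milk, and both stayed on their diet for 12 weeks. Per the study's methods, the mice were female. From intrahepatic leukocytes, NK cells were sorted as Lin- NK1.1+ CD49a- CD49b+ and ILC1 as Lin- NK1.1+ CD49a+ CD49b-, and libraries were made from 2 ng of total RNA. Libraries are named by diet, cell and mouse number (25, 26 and 27), and a number shared by a lean and an obese mouse does not make them related.

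NK cells circulate and kill infected or transformed cells with perforin and granzymes, while ILC1 reside in the liver, kill less and are known for cytokine production and for the ligand TRAIL. The 7 genes belong to unrelated families. Aqp9 encodes an aquaglyceroporin, a membrane channel for water, glycerol and other small uncharged solutes, and in liver it is best known as the glycerol channel of hepatocytes. Asphd2 encodes a protein with an aspartyl/asparaginyl beta-hydroxylase domain, Ccdc136 a coiled-coil protein, and Aim1l (now Crybg2) a protein with beta/gamma-crystallin domains related to Aim1 (absent in melanoma 1). 1810011H11Rik is now named Tmem273, for a predicted transmembrane protein. 2900026A02Rik, with the synonym Kiaa1671, is protein coding and carries only a clone name. A430088P11Rik is annotated as a long non-coding RNA.

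The genes lie at scattered places in the mouse genome (GRCm38, GENCODE M21). Asphd2 (chr5:112384354-112394866) and 2900026A02Rik (chr5:113086323-113221236) are both on the minus strand and 691457 bp apart. Ccdc136 lies at chr6:29396309-29426994 on the plus strand, Aim1l at chr4:134060815-134092504 on the plus strand, Aqp9 at chr9:71110659-71168682 on the minus strand, and 1810011H11Rik at chr14:32785963-32817984 on the plus strand. A430088P11Rik (chr15:80691025-80697610, minus strand) lies inside Fam83f, a gene of the plus strand, and 686 of its 4502 exonic bases are shared with Fam83f exons. For Aim1l, 172 of 7801 exonic bases are shared with Cd52 on the other strand. Whether the counting used strand is not given in the sources used here, so reads in these shared stretches cannot be assigned to either gene.

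Sequence upstream of the annotated starts is shown for the 4 genes whose 250 upstream bases hold no annotated exon in their first RefSeq window, which lets 3 genes that were lower in every obese ILC1 library (1810011H11Rik, A430088P11Rik and Aim1l) be read beside Aqp9, whose diets overlapped. Bases are from RefSeq (GRCm38.p6), written 5′ to 3′ on the strand of the gene, with the base before the annotated start last. The positions are chr14:32785713-32785962, plus strand, for 1810011H11Rik, chr15:80697611-80697860, minus strand, for A430088P11Rik, chr4:134068202-134068451, plus strand, for Aim1l, and chr9:71162634-71162883, minus strand, for Aqp9. The stretch of 1810011H11Rik lies just before the gene, that of A430088P11Rik in an intron of Fam83f, and those of Aim1l and Aqp9 within the GENCODE bounds of these genes but outside their exons. Capitals mark matches to the motifs named after the sequences.
1810011H11Rik: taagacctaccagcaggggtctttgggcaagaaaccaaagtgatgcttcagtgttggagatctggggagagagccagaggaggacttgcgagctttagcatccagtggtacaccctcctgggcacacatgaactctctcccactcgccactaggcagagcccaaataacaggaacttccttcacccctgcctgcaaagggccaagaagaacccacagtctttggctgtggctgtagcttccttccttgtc
A430088P11Rik: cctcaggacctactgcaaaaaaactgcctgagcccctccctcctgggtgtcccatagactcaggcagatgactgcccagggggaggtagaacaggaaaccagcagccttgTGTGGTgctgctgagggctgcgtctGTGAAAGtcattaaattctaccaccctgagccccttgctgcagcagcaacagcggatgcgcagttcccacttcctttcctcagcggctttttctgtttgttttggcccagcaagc
Aim1l: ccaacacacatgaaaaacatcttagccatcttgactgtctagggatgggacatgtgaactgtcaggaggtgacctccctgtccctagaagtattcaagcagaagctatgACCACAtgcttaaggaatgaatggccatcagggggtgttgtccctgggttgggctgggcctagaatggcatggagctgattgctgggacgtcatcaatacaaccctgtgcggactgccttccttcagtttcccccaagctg
Aqp9: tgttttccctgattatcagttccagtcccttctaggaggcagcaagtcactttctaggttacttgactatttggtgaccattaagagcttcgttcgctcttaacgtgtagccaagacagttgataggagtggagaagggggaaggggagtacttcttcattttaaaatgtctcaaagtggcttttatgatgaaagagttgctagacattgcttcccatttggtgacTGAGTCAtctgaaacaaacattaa

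The motifs searched, on both strands, were those of factor families known from tissue-resident or type 1 lymphocytes: T-box (GGTGTGA), RUNX (TGTGGT), AP-1 (TGANTCA), Blimp-1/Hobit (GTGAAAG) and the aryl hydrocarbon receptor AHR (GCGTG). No match overlapped another in these windows. In all, 13 windows of 300 bases, from 250 before to 50 after an annotated start, belonged to the 7 genes. Each gene had 1 to 4 windows, so counts of genes with a match cannot be compared directly with the shares of single windows given beside them. The RUNX letters were found for 3 of the 7 genes (A430088P11Rik, Aim1l and Asphd2) and in 16.8% of all 32841 windows. The Blimp-1/Hobit letters stood only in A430088P11Rik, 115 to 109 bases before its start (4.24% of all windows). Aqp9 held the AP-1 letters 24 to 18 bases before its first listed start (7.81% of all windows). AHR letters were found for 3 genes (Asphd2, Aqp9 and 2900026A02Rik) and in 32.4% of all windows, and the T-box letters for 0 of 7 and in 3.98%. The windows of 1810011H11Rik and Ccdc136 held none of the 5 motifs. The sequences also differed in CpG content, with 3 CpGs in the 300 bases of 1810011H11Rik, 2 in Aim1l, 4 in A430088P11Rik and 53 in the first window of Asphd2, against a median of 7 over all windows.

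**Figure D1:**
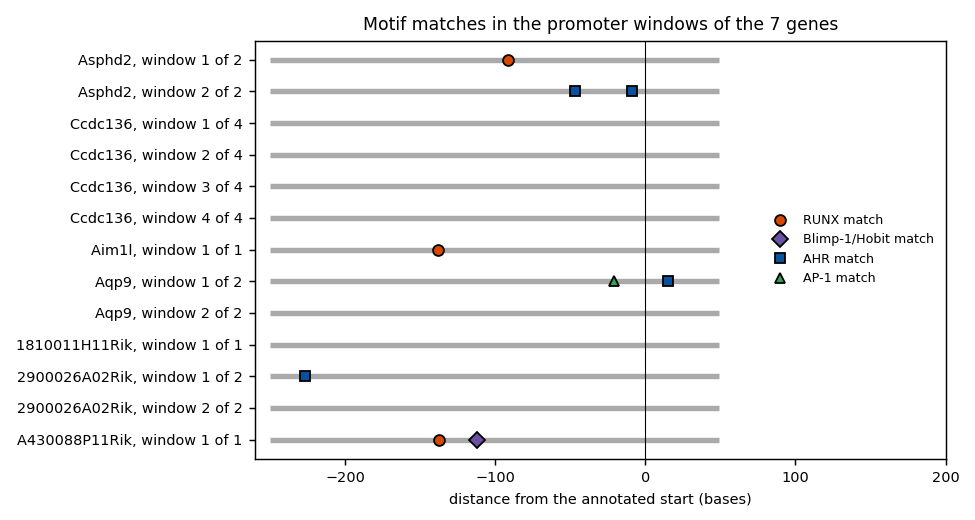
Motif matches in the 13 promoter windows of the 7 genes. The horizontal axis is the distance from the annotated start in bases, grey bars are the windows searched and symbols are matches on either strand; the windows of Ccdc136 and 1810011H11Rik are empty, and A430088P11Rik holds a RUNX and a Blimp-1/Hobit match.

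Total counts over the analysed genes ranged from 1666637 to 2826766 per library. The labels were checked against the analysed markers. Cxcr6, a chemokine receptor of ILC1, had 3575 to 23154 counts in ILC1 and 61 to 855 in NK cells, and Cma1, a mast cell protease also made by NK cells, had 35 to 660 in ILC1 and 6668 to 9908 in NK cells, so that these 2 genes separated the cells in all 12 libraries. Cx3cr1, a chemokine receptor of NK cells, did not, with 1186 to 2466 counts in NK cells, 4 to 448 in 5 ILC1 libraries and 1773 in obese ILC1 of mouse 26. 1 library stood apart. In obese ILC1 of mouse 26, 12 hepatocyte markers took 10.4% of the counts, against 0.00282% to 0.0661% in the other 11 libraries, 9 Kupffer cell markers took 1.47%, and the ILC1 markers Cxcr6 and Cd200r1 took 0.222% against 0.881% to 1.43% in the other ILC1 libraries. Lean NK cells of mouse 27 had the fewest genes with a count, 1948. For obese ILC1, means and the levels and shares that mouse 26 moves most are also given without it. In bulk RNA from sorted cells, fewer cells that use a gene and less RNA per cell cannot be told apart.

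Levels in the next paragraphs are the authors' normalized counts, which are counts divided by 1 factor per library. All 7 genes had a higher mean in ILC1 than in NK cells of the same diet, and in lean mice every ILC1 library lay above every NK library for all 7. The choice of the genes favoured this, and it was not counted over all genes for lean mice alone. Over all genes tested, edgeR's quasi-likelihood test called 82 (3.15%) higher and 31 (1.19%) lower in ILC1, and the 7 genes were among the higher calls, as their choice entails. With the mouse as a block, 32 genes were called higher, among them Ccdc136, Aqp9 and 1810011H11Rik of the 7. Every ILC1 library of either diet lay above every NK library for 4 of the 7 (Asphd2, Aim1l, Aqp9 and 1810011H11Rik), as for 3.03% of the genes tested. The lowest ILC1 libraries of Asphd2 had only 1 (lean mouse 27) and 2 (obese mouse 26) raw counts, against 0 in NK cells. For Ccdc136, 2900026A02Rik and A430088P11Rik the libraries of obese ILC1 and obese NK cells overlapped, in each case through ILC1 of mouse 26. Without that library, the lowest obese ILC1 value was above the highest obese NK value for all 3 genes (64 and 23 for Ccdc136, 387 and 82 for 2900026A02Rik, and 47 and 22 for A430088P11Rik). The choice of the genes favoured this as well, and it was not counted over all genes. Asphd2 was at 0 in all NK libraries, so only the lower bounds given below apply to it. The edgeR log2 differences of the other six between ILC1 and NK cells were 7.41 for 1810011H11Rik, 6.19 for Ccdc136, 5.46 for Aqp9, 3.56 for Aim1l, 3.34 for 2900026A02Rik and 2.96 for A430088P11Rik.

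**Figure D2:**
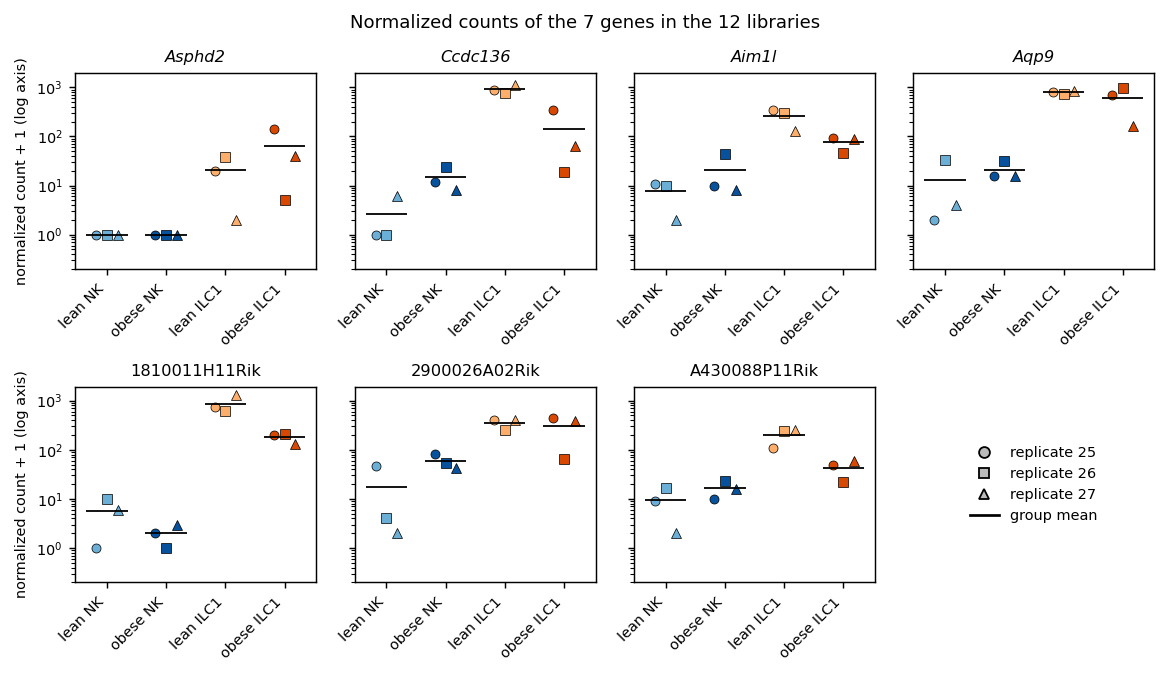
Normalized counts (plus 1, log axis) of the 7 genes in the 12 libraries. Each point is a library, symbols mark the mouse number and horizontal lines are group means; lean ILC1 lie above lean NK cells in every panel, and obese ILC1 of mouse 26 (squares) is the lowest of its group in 5 panels.

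Asphd2, the putative hydroxylase, was the gene without any count in NK cells. All 6 NK libraries were at 0, and lean ILC1 had 19, 38 and 1 (mice 25, 26 and 27) and obese ILC1 144, 4 and 40. Each group of ILC1 thus contained a library close to the floor, and the values of both diets overlapped. Against a floor of 3 counts per NK library, the mean was at least 6.63-fold higher in lean ILC1 and at least 28.6-fold higher in obese ILC1. Per kilobase of exon its mean level in lean ILC1, 4.82, was the lowest of the 7 genes.

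Ccdc136, the coiled-coil gene, differed most between lean NK cells and lean ILC1 of the 6 genes detected in NK cells. Its normalized counts were 0, 0 and 5 in lean NK cells and 901, 756 and 1094 in lean ILC1. Obese NK cells had 11, 23 and 7, each above every lean NK library, and obese ILC1 had 341, 18 and 64, each below every lean ILC1 library. The ratio of lean ILC1 to lean NK cells, 565-fold, rested on 5 NK counts in all and had a 95% interval of 242 to 1743 for counting error only. In obese mice the groups overlapped, since the 18 of ILC1 of mouse 26 lay under the 23 of NK cells.

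Aim1l, the crystallin domain gene, was detected in all 12 libraries. Lean NK cells had 10, 9 and 1, obese NK cells 9, 44 and 7, lean ILC1 349, 297 and 126, and obese ILC1 93, 46 and 89. The lowest obese ILC1 library (46) and the highest obese NK library (44) came within 2 normalized counts of each other. Its relative Aim1, a candidate suppressor of melanoma, went the other way. Aim1 had 2000 to 3920 raw counts in NK cells and 409 to 1178 in ILC1 (log2 difference -1.41, edgeR adjusted p = 0.00085).

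Aqp9, the aquaglyceroporin, had the smallest relative spread of the 7 genes among lean ILC1. It had 1, 32 and 3 in lean NK cells, 15, 30 and 15 in obese NK cells, 820, 719 and 863 in lean ILC1, and 695, 968 and 161 in obese ILC1. The highest obese ILC1 value was in mouse 26, the library with the hepatocyte transcripts. In raw counts, that library held 552 of Aqp9, 3039 of Aqp1 and 762 of Aqp8. Aqp8 was at 0 in the other ILC1 libraries. Lean ILC1 with 719 or more held 0.0113% to 0.0138% hepatocyte markers and none of the 5 neutrophil markers. Whether transcripts of other cells contributed to the Aqp9 counts was not tested.

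**Figure D3:**
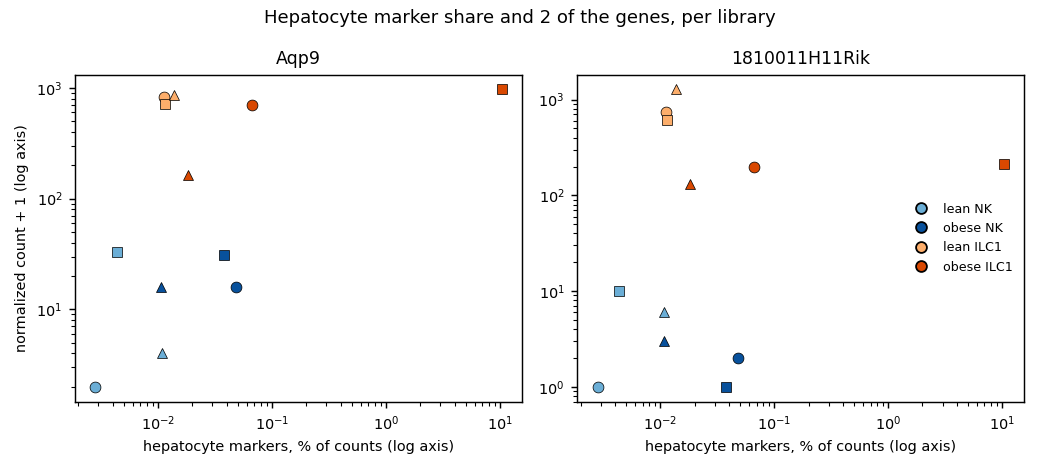
Normalized counts (plus 1, log axis) of Aqp9 and 1810011H11Rik against the share of counts of 12 hepatocyte markers (percent, log axis). Each point is a library, with circles for mice 25, squares for mice 26 and triangles for mice 27; obese ILC1 of mouse 26 is alone at 10.4%, with the highest Aqp9 value of all 12 libraries.

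1810011H11Rik, the predicted transmembrane protein, kept the widest gap between cells in obese mice among the genes detected in NK cells. Lean NK cells had 0, 9 and 5, obese NK cells 1, 0 and 2, lean ILC1 734, 611 and 1278, and obese ILC1 198, 209 and 131. In obese mice the ratio of ILC1 to NK cells was 171.5-fold on 4 NK counts, with a counting interval of 66.5 to 632. It was also the gene with the highest mean level per kilobase of exon in lean ILC1, 545.1, followed by Ccdc136 (211.6) and Aqp9 (193.3). On that scale the lean ILC1 libraries of 1810011H11Rik lay above all those of Ccdc136, those of Ccdc136 and Aqp9 overlapped, and those of A430088P11Rik, next in the order, lay below both.

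The remaining pair had the smallest fitted differences with both diets pooled, although in obese mice the ratio of ILC1 to NK cells was smaller for Aim1l (3.8) than for 2900026A02Rik (5.1). 2900026A02Rik had 46, 3 and 1 in lean NK cells, 82, 53 and 42 in obese NK cells, 395, 248 and 411 in lean ILC1, and 450, 65 and 387 in obese ILC1, where the library of mouse 26 lay inside the range of obese NK cells. A430088P11Rik, the non-coding RNA, had 8, 16 and 1 in lean NK cells, 9, 22 and 15 in obese NK cells, 106, 235 and 256 in lean ILC1, and 47, 21 and 57 in obese ILC1, where mouse 26 again lay under the highest NK library. Per kilobase of exon, lean ILC1 held a mean level of 44.2 of A430088P11Rik, 33.0 of Aim1l and 32.5 of 2900026A02Rik, with overlapping libraries. In obese ILC1 the highest mean levels per kilobase were those of Aqp9 (146.8) and 1810011H11Rik (111.8), which were both 103 without mouse 26, and the lowest were those of Aim1l (9.74) and A430088P11Rik (9.26), whose libraries overlapped.

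Obese and lean ILC1 were then compared, which asks whether genes that mark ILC1 change there with diet. Ccdc136, 1810011H11Rik, A430088P11Rik and Aim1l were lower in every obese library than in every lean library, whereas Aqp9, 2900026A02Rik and Asphd2 overlapped. The 4 non-overlapping genes were 4 of 7, against 7.94% of all genes tested, and 0 of 7 were higher in every obese library (7.29% of genes tested). The choice used levels of these ILC1 libraries, so comparisons of the 7 genes with all genes in this contrast are a description. No gene passed the test, however: edgeR (quasi-likelihood, adjusted by Benjamini-Hochberg) called 0 of 2606 genes in either direction (0.0%), with 197 higher and 80 lower at an unadjusted p under 0.05, and DESeq2 called 57 higher and 20 lower.

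Ccdc136 averaged 917 ± 170 normalized counts in lean and 141 ± 175 in obese ILC1 (SD, n = 3 each), a mean 6.5-fold lower in obese mice. The log2 fold change was -2.71 (SE 1.14) and did not pass the test (edgeR adjusted p = 0.405). Its size rested on single libraries, at -4.48 without obese mouse 25 and -2.18 without obese mouse 26.

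For 1810011H11Rik the mean was 874 ± 355 in lean and 179 ± 42.2 in obese ILC1 (SD, n = 3 each), or 4.88-fold lower. The log2 fold change was -2.32 (SE 0.927) with an edgeR adjusted p of 0.371, while DESeq2 called it lower (log2 fold change -2.28, adjusted p = 0.0422), as it did 0.552% of the genes it tested. The library with the hepatocyte transcripts was the highest of the obese group here, and without it the obese mean was 164.5.

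A430088P11Rik averaged 199 ± 81.2 in lean and 41.7 ± 18.6 in obese ILC1 (SD, n = 3 each), 4.78-fold lower, with a log2 fold change of -2.27 (SE 0.992, edgeR adjusted p = 0.428). Aim1l averaged 257 ± 117 and 76.0 ± 26.1, 3.39-fold lower, with a log2 fold change of -1.78 (SE 1.0, edgeR adjusted p = 0.567). Neither passed the test, although the groups did not overlap for either gene. At an unadjusted p under 0.05, 3 of the 7 genes were lower (Ccdc136, 1810011H11Rik and A430088P11Rik) and 0 higher, against 3.07% and 7.56% of all genes tested.

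For the other three genes the difference was smaller than its standard error. Aqp9 averaged 801 ± 73.9 in lean and 608 ± 411 in obese ILC1 (SD, n = 3 each; log2 fold change -0.45, SE 0.929, edgeR adjusted p = 0.929), and the obese mean was 428 without mouse 26. 2900026A02Rik averaged 351 ± 89.9 and 300.7 ± 207 (log2 fold change -0.23, SE 1.09, edgeR adjusted p = 0.969); without obese mouse 26 its sign turned, to 0.258. Asphd2 averaged 19.3 ± 18.5 and 62.7 ± 72.7 (log2 fold change 1.69, SE 1.73, edgeR adjusted p = 0.823), and the difference was 0.171 without obese mouse 25 and 2.24, with an obese mean of 92.0, without obese mouse 26.

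**Figure D4:**
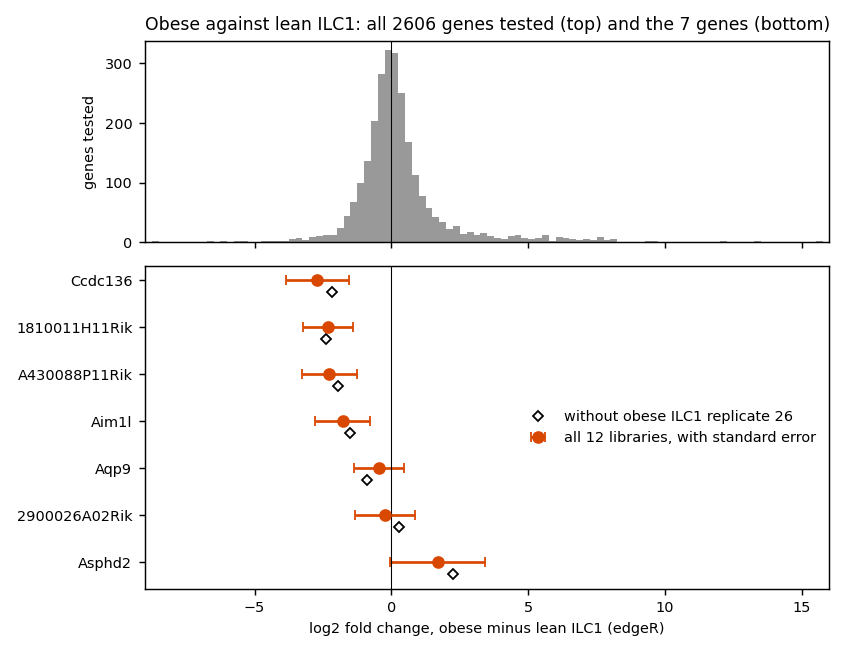
Log2 fold change between obese and lean ILC1 for all 2606 genes tested (histogram, top) and for the 7 genes (bottom). Filled points are edgeR estimates with bars of 1 standard error, and open diamonds leave out obese ILC1 of mouse 26; 4 genes lie between -2.71 and -1.78, and none passed the test.

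The other genes called higher in ILC1 lay on both sides of 0. The median log2 fold change between obese and lean ILC1 was -1.78 for the 7 genes, 0.0852 for the 75 other genes called higher in ILC1 and 0.0199 for all genes tested. Of those 75 genes, 13.3% were lower and 17.3% higher in every obese ILC1 library. Cxcr6 was lower in every obese ILC1 library (ratio of normalized means 0.560), and Cd200r1, an inhibitory receptor, was not (1.13). Other marker lists also differed with diet among the ILC1 libraries. The 9 T cell markers, most of whose counts in lean ILC1 were those of Cd3g, took 0.809% to 0.95% of the counts in lean and 0.268% to 0.771% in obese ILC1. Raw counts of Cd3g ranged from 12045 to 13275 in lean ILC1 and from 1991 to 10266 in obese ILC1. The other 8 T cell markers overlapped, at 0.101% to 0.259% in lean and 0.155% to 0.213% in obese ILC1. The lower share of raw counts thus lay with Cd3g. In normalized counts, however, 0 of the 7 T cell markers tested, Cd3g among them, were lower in every obese ILC1 library. The 2 NK cell markers (Cma1 and Cx3cr1) overlapped between diets, at 0.00541% to 0.0342% in lean and 0.026% to 0.105% in obese ILC1, against 0.321% to 0.579% in NK cells. Kupffer cell markers took 0.0092% to 0.0239% in lean and 0.0953% to 1.47% in obese ILC1. Hepatocyte markers were also higher in every obese library, at 0.0113% to 0.0138% in lean and 0.0182% to 10.4% in obese ILC1, and neutrophil markers were at 0 in lean and took 0.00018% to 0.297% in obese ILC1. Their part in the lower levels of the 4 genes was not tested. Without obese mouse 26, the obese means were 0.221, 0.354, 0.188 and 0.261 times the lean means for Ccdc136, Aim1l, 1810011H11Rik and A430088P11Rik. Obese ILC1 of mice 25 and 27, which remain in these means, held 0.0953% and 0.115% Kupffer cell markers.

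Between obese and lean NK cells, the contrast that helped to choose the genes, Ccdc136 was the gene that separated the diets, since its 3 obese NK libraries lay above its 3 lean ones, as for 9.9% of the genes tested, while 6.33% of genes tested were lower in every obese NK library. Over all genes, edgeR called 0 in either direction, with 25 higher (0.959%) and 6 lower (0.23%) at an unadjusted p under 0.05, and DESeq2 called 8 higher and 0 lower. The edgeR log2 differences were 3.07 for Ccdc136, 1.81 for 2900026A02Rik, 1.54 for Aim1l, 0.84 for A430088P11Rik and 0.78 for Aqp9, while 1810011H11Rik was lower (-2.07) and Asphd2 was at 0 in both. Most of these rested on few counts: means of lean and obese NK cells were 1.67 and 13.7 for Ccdc136, 6.67 and 20 for Aim1l and 16.7 and 59.0 for 2900026A02Rik. Leaving out 1 library moved these differences widely. For Aim1l the difference was 0.199 without obese NK cells of mouse 26, for 2900026A02Rik 4.83 without lean mouse 25, for Aqp9 0.224 without lean mouse 25 and 3.36 without lean mouse 26, for A430088P11Rik 0.316 without lean mouse 27 and 1.70 without lean mouse 26, and for 1810011H11Rik -1.12 without lean mouse 26 and -3.26 without obese mouse 27. The Ccdc136 counts of lean NK cells were all in mouse 27, and without it no fold can be given. Ccdc136, 1810011H11Rik and Asphd2 did not pass the low-count filter on the NK libraries alone. They were among the genes tested through their ILC1 levels. In lean NK cells of mouse 27, the library with the fewest genes, Aim1l, 2900026A02Rik and A430088P11Rik each had 1 normalized count.

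NK cells of obese mice lay far below lean ILC1, which the choice of the genes favoured. Obese NK cells held 1.49% of the lean ILC1 mean of Ccdc136, 7.77% of Aim1l, 2.5% of Aqp9, 0.114% of 1810011H11Rik, 16.8% of 2900026A02Rik and 7.70% of A430088P11Rik. Mouse 26 carried much of the value for Aim1l and Ccdc136, whose shares were 3.11% and 0.981% without its NK cells. Relative to obese ILC1, where several genes were low, the same NK cells held 36.8% of A430088P11Rik, 26.3% of Aim1l and 19.6% of 2900026A02Rik. Without obese ILC1 of mouse 26 these shares were 29.5%, 22.0% and 14.1%, and without obese NK cells of mouse 26 that of Aim1l was 10.5%. For the ILC1 marker Cxcr6 the share in obese NK cells was 1.43% of lean and 2.55% of obese ILC1. The level of Ccdc136 in NK cells was 0.182% of that in ILC1 in lean mice and 9.70% in obese mice, or 6.75% without obese ILC1 of mouse 26.

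**Figure D5:**
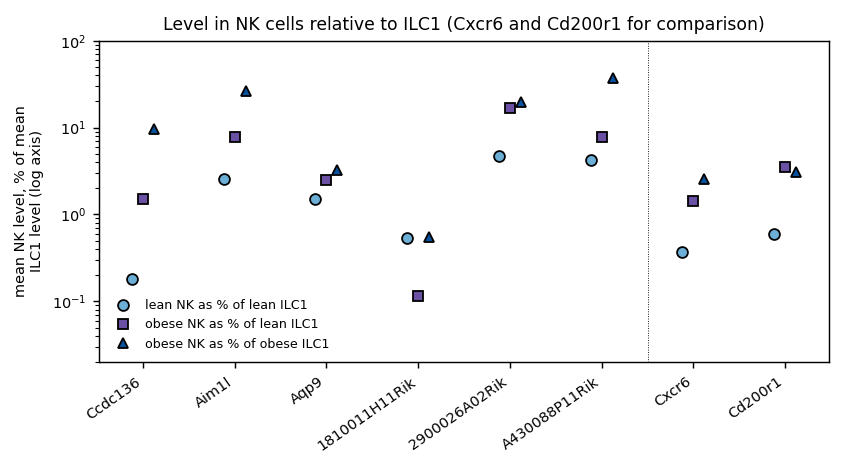
Mean normalized count in NK cells as a percent of the mean in ILC1 (log axis), for the 6 genes detected in NK cells and for Cxcr6 and Cd200r1. Circles compare lean NK cells with lean ILC1, squares obese NK cells with lean ILC1 and triangles obese NK cells with obese ILC1; 1810011H11Rik stays under 0.56% in all 3.

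Genes on lists of related or similarly named genes were mostly outside this pattern. The Ccdc and clone-name lists were drawn by symbol only and are not families. The analysed genes included 11 aquaporins, of which 4 passed the filter and Aqp9 alone was called higher in ILC1. Of 11 aspartyl hydroxylase and AlkB oxygenase genes 10 were tested and Asphd2 alone was called higher, and its nearest relative Asphd1 was at 0 in every library. Among 17 beta/gamma-crystallin domain genes 4 were tested, with Aim1l called higher and Aim1 lower. Of 84 Ccdc genes tested, 2.38% were called higher in ILC1, and of 445 genes listed under a RIKEN clone name 1.35%, both below the 3.15% of all genes. These shares include Ccdc136 in the first list and 1810011H11Rik, 2900026A02Rik and A430088P11Rik in the second. Between obese and lean ILC1, edgeR called 0 of all 2606 genes tested, and so none of these lists. Of the 445 clone-named genes 7.19% were lower and 3.15% higher in every obese ILC1 library, against 7.94% and 7.29% of all genes tested.

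Genes beside the 7 in the genome did not stand out between ILC1 and NK cells where they were measured. Within 200 kb, 4 neighbours were tested: Cd52 and Cep85 beside Aim1l, and Calu and Atp6v1f beside Ccdc136. Cd52 encodes a surface glycoprotein of lymphocytes and overlaps Aim1l on the other strand. It had up to 29112 raw counts and a log2 difference of 0.738 (edgeR adjusted p = 0.0312), under the 2-fold threshold. The other three had log2 differences of 0.263 (Cep85), -0.0878 (Calu) and 0.311 (Atp6v1f), and none passed the test. The gene next to Aim1l upstream, 1819 bp away on the same strand, is Zfp683, which encodes Hobit, a transcription factor of liver ILC1, and it was not analysed here.

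The genes whose log2 levels followed each of the 7 most closely were found by Pearson's r over the 12 libraries, which form separate groups by cell type. They were Arnt2 for Asphd2 (0.9645), Cd226 for Ccdc136 (0.9516), Asb2 for Aim1l (0.958) and A430088P11Rik (0.9382), Ckb for Aqp9 (0.9826), Cd3g for 1810011H11Rik (0.9539) and A230050P20Rik for 2900026A02Rik (0.9536). Cxcr3 was the second gene for both Aim1l and A430088P11Rik (0.9426 and 0.9298), and Aim1l was the third for A430088P11Rik (0.923). Ranking by Spearman's rho instead shared at most 1 of the 3 nearest genes with Pearson's ranking for any of the 7.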

How the data were processed

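RNA from sorted liver NK cells and ILC1 was sequenced in 12 libraries. Per the submitters' processing notes, the tools were bcl2fastq 2.19, Trimmomatic 0.36.5, STAR 2.5.2b and featureCounts 1.6.0.2 with mm10, and whether strand was used is not given in the sources used here. The authors deposited raw counts per gene and normalized counts, a score equal to the counts divided by 1 factor per library (0.57 to 1.5157) and rounded, and these normalized counts are the levels given above. The table analysed here held 5546 genes in alphabetical order up to Cyp26b1, 1 of them with an incomplete row, and adjusted p-values are over its 2606 tested genes only. The 9 unnamed blank columns held nothing.

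Counts were fitted with edgeR 4.0.16 (trimmed mean normalization, low-count filter, quasi-likelihood test, 4 groups in 1 model of 12 libraries) and adjusted by Benjamini-Hochberg. A gene was called at an adjusted p below 0.05 and a fold change over 2. The fitting code was run on simulated counts in which the groups shared the mean of each gene, apart from set changes. Differences between NK cells and ILC1 and a library like obese ILC1 of mouse 26 were not modelled. That run therefore cannot show how the fit behaves on these data. The mice are separate animals, so the spread is between mice. Lean and obese mice share only a number, while NK cells and ILC1 with 1 diet and number come from 1 mouse by the design. Deviations from the group means correlated between the libraries of a mouse at -0.0763 to 0.1406. With the mouse as a block, 3 of the 7 genes were called higher in ILC1. Alternatives were DESeq2 1.42.0, other filters, other factors, the block and leaving out each library. The fits with the authors' factors, the levels and shares without mouse 26 and the T cell marker share without Cd3g were added after seeing the data. Totals of 1666637 to 2826766 counts limit low genes, and intervals and floors cover counting error only. The genes, gene lists, motifs and tests were chosen with earlier results of these data known. Named beside the 7 genes were the 3 tested genes most alike each, the genes of fixed family and marker lists with at least 10 counts in a library on which a result turns, and tested neighbours within 200 kb.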

Additional observations from a re-analysis of the deposited data

Results flagged for a closer look

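Ccdc136 differed in opposite directions with diet in the 2 kinds of cell, although edgeR called neither difference. Every obese NK library lay above every lean one, as for 9.9% of genes tested. Every obese ILC1 library lay below every lean one, as for 7.94%. Normalized counts were 0, 0 and 5 in lean and 11, 23 and 7 in obese NK cells. The 5 came from lean mouse 27, the library with the fewest genes with a count. On the NK libraries alone Ccdc136 did not pass the low-count filter, so it was among the genes tested through its ILC1 levels. The log2 differences were 3.07 in NK cells and -2.71 in ILC1. The difference between these effects was not tested, since the change in NK cells was among the reasons for choosing the gene.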

How the results depend on the processing

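All 20 settings run for obese against lean ILC1 kept the log2 fold changes of Ccdc136, Aim1l, Aqp9, 1810011H11Rik and A430088P11Rik below 0; that of 2900026A02Rik ranged from -0.65 to 0.258 without each replicate and reversed to 0.258 without obese ILC1 replicate 26. With the replicate block, in which lean and obese mice share only a number, 0 genes were called for either diet comparison. The 0 genes called higher in obese ILC1 became 57 with DESeq2, 58 with DESeq2 on the authors' factors and 0 to 4 without each replicate; the 0 called lower became 20, 21 and 0 to 2, and the 0 of the 7 genes called lower became 1, 1 and 0 to 0 (1810011H11Rik in both DESeq2 fits). For obese NK cells the 0 higher became 8, 8 and 0 to 1, and the lower calls stayed at 0 to 0 without each replicate. Genes higher in ILC1 than in NK cells, 82 in the reported fit, were 149 with DESeq2, 148 with DESeq2 on the authors' factors, 38 with at least 10 counts in every library, 32 with the replicate block of the mouse, 39 in lean mice, 14 in obese mice and 40 to 114 without each replicate. Genes lower, 31 as reported, were 73, 73, 14 with the block, 10 in obese mice, 58 with no fold threshold and 22 to 47 without each replicate. Of the 7 genes called higher in ILC1, 4 were called with no filter, 3 with the block, 4 in lean and 1 in obese mice, and 3 to 7 without each replicate: 7 without obese ILC1 replicate 26, 6 without lean NK replicate 27, 5 without obese ILC1 replicate 25 and 3 or 4 without any other. The cause was not tested. None of the 7 genes had 10 counts in every library. In obese ILC1, the folds of Ccdc136 and Asphd2 rested most on replicate 25. The log2 fold change of Aqp9 was -0.00768 without replicate 27 and -0.908 without replicate 26.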
